A study of Mus musculus with 15 samples.

Results

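Gene expression at zeitgeber time 16 (ZT16) was compared with that at ZT10 in innate lymphoid cells of the mouse small intestine, using all 7 libraries of these times out of 15 in the series. Innate lymphoid cells are lymphocytes without rearranged antigen receptors: group 2 cells (ILC2) make type 2 cytokines, and group 3 cells (ILC3) make interleukin-17 and interleukin-22. ZT10 had 2 ILC2 and 2 ILC3 libraries, and ZT16 had 1 ILC2 and 2 ILC3 libraries. All mice were female. The labels name no strain, genotype, age or treatment and do not state the light schedule; by convention zeitgeber time counts hours from lights-on, which puts ZT10 late in the light phase and ZT16 in the dark phase. At each time the cells of 6 mice were pooled before staining and sorting, with antibodies that the labels do not name. The design text calls replicates biological, but whether both replicates of a time share 1 pool of mice is not stated, and p-values may then measure technical spread only. Batch 1 of the labels holds ILC2 and batch 2 holds ILC3, so ZT10 and ZT16 were always compared within a batch.

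The circadian clock is a transcription loop that runs in nearly every cell. BMAL1 (gene Arntl) and CLOCK bind E-box motifs and activate Per, Cry, Nr1d1, Nr1d2, Dbp and Tef; the PER and CRY proteins then block BMAL1 and CLOCK, the REV-ERB receptors made from Nr1d1 and Nr1d2 repress Arntl, and DBP and TEF act on D-box motifs. In nocturnal rodents activity, feeding and body temperature also follow the day, and genes of the heat shock response and of the cold-inducible RNA-binding proteins are known to respond to temperature.

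Total counts of the 7 libraries ran from 4016298 (ILC2 ZT10 replicate 1) to 24794403 (ILC3 ZT10 replicate 2). The markers of the sorted types lay as labelled: the ILC2 factor gene Gata3 had 435 to 665 CPM (counts scaled to 1e+06 per library, with TMM factors) in ILC2 and 33.6 to 53.0 in ILC3, while the interleukin-23 receptor gene Il23r had 3.07 to 7.63 and 71.1 to 156. Transcripts of other cells were present in both sorts. Summed over 15 plasma and B cell markers, the ILC2 libraries had 50750 and 37890 CPM at ZT10 and 99490 at ZT16, and the ILC3 libraries 686 and 601 at ZT10 and 1685 and 1506 at ZT16. In a sorted bulk sample, a change in how many cells of a type are present cannot be told apart from a change in RNA per cell.

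Across the step, with cell type as a block, 8 of 15339 genes passed an adjusted p of 0.05 (0.0522%; edgeR's quasi-likelihood test with Benjamini-Hochberg adjustment). The 6 genes that rose (0.0391%) were the heat shock genes Hspa1a, Hspa1b, Hspa1l and Hsph1, the antibody joining chain gene Jchain and the surface antigen gene Ly6d. The 2 genes that fell (0.013%) were the cold-inducible RNA-binding protein gene Rbm3 and Wsb1, which encodes a substrate-binding subunit of a ubiquitin ligase. The clock genes Nr1d1 and Dbp were lower at ZT16 in every library than at ZT10 in the same cell type, with an adjusted p of 0.0763 for both. At an unadjusted p under 0.05 there were 985 genes (6.42%), 444 of them higher and 541 lower. The 8 calls rest on these particular libraries: each of the 5 fits that left out ILC2 ZT10 replicate 2 or 1 of the 4 ILC3 libraries called 0 genes, the fit without the ILC2 ZT16 library called only Jchain, and the fit without ILC2 ZT10 replicate 1 called 27. At an unadjusted p under 0.05 these 5 fits had 631 to 1382 genes. A fit of 8 group means over all 15 libraries, whose other times add more spread, also called 0 (361 at an unadjusted p under 0.05), while DESeq2 on the 7 libraries called 118, among them all 8. The direction of all 8 genes was the same in all 17 alternatives tried, but this is no separate support. None of the 8 overlapped between times in either cell type, so leaving out 1 library could not reverse them. The other settings fitted the same libraries again.

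Heat shock proteins are chaperones that keep other proteins folded, and the HSP70 genes Hspa1a and Hspa1b are the strongly inducible ones. Hspa1b (Entrez 15511; GRCm38.p6 chromosome 17, 34956429 to 34959238) had 1381 and 1044 CPM in the ILC2 libraries of ZT10 and 5627 in that of ZT16. In ILC3 it had 2295 and 2216 CPM at ZT10 and 6068 and 4169 at ZT16. The groups did not overlap in either cell type, and both cell types reached a similar level at ZT16 from a lower ILC2 level at ZT10. The log2 fold change was 1.61 ± 0.22 (SE; edgeR adjusted p = 0.0389), a fitted 3.05-fold rise. Hspa1a (Entrez 193740; chromosome 17, 34969359 to 34972156) had 392 and 296 CPM in ILC2 at ZT10 and 1553 at ZT16, and 661 and 603 in ILC3 at ZT10 against 1700 and 1193 at ZT16. It rose by 1.60 ± 0.21 (edgeR adjusted p = 0.0389), again without overlap. The neighbouring Hspa1l (Entrez 15482; chromosome 17, 34972703 to 34979228), a family member best known from the testis, had 57.4 and 39.7 CPM in ILC2 at ZT10 and 196 at ZT16, and 112 and 101 against 279 and 192 in ILC3. Its log2 fold change was 1.50 ± 0.21 (edgeR adjusted p = 0.0389). These genes are not independent measurements: of the 50-base stretches in the Hspa1b transcripts, 62.3% were also in Hspa1a and 6.79% in Hspa1l, and the treatment of reads that match several genes is not given in the sources used here. Without the ILC2 ZT16 library the Hspa1b value was 1.18, from ILC3 alone (edgeR adjusted p = 0.542).

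Hsph1 (Entrez 15505; chromosome 5, 149616843 to 149636498) encodes an HSP110 chaperone that recycles HSP70 proteins. It had 117 and 110 CPM in ILC2 at ZT10 and 241 at ZT16, and 126 and 136 in ILC3 at ZT10 against 240.2 and 216 at ZT16. With the smallest spread of the heat shock genes called, its log2 fold change was 0.92 ± 0.13 (edgeR adjusted p = 0.0389). The other genes of this list were tested but not called. Dnajb1, the HSP40 co-chaperone of HSP70, had 330.0 and 324 CPM in ILC2 at ZT10 and 1286 at ZT16, and 292 and 307 against 733 and 394 in ILC3 (1.35 ± 0.24, edgeR adjusted p = 0.108). The small heat shock protein gene Hspb1 was low, at 2.24 and 2.25 CPM against 11.2 in ILC2 and at 0.875 and 1.07 against 4.82 and 2.90 in ILC3, with the largest fold change of the list (2.12 ± 0.36, edgeR adjusted p = 0.0914). The constitutive HSP70 gene Hspa8 was at 0.46 ± 0.14, the HSP90 genes Hsp90aa1 and Hsp90ab1 at 0.60 ± 0.16 and 0.40 ± 0.15, the mitochondrial chaperone gene Hspd1 at 0.51 ± 0.13 and the co-chaperone gene Bag3 at 0.85 ± 0.22. Hsf1, the gene of the factor that drives this response, was level, at 47.2 to 54.5 CPM in all 7 libraries.

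The list of heat shock and cold-inducible genes holds 17 genes and does not include Hspa1l. Of the 17, 3 were called higher and 1 lower. At an unadjusted p under 0.05, 11 were higher, against 2.89% of all genes tested, and 2 were lower, against 3.53%. The same 11 and 2 did not overlap between times in either cell type, which held for 6.88% of all genes in the higher and 6.13% in the lower direction. The list's median log2 fold change was 0.51, beside -0.0022 for all genes tested, and was 0.54 in ILC2 and 0.49 in ILC3. Members of a list share libraries and regulators and do not count as independent. The list was chosen with earlier results of these data known.

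The cold-inducible genes lay the other way. Rbm3 (Entrez 19652; chromosome X, 8138975 to 8145880), whose protein binds RNA and is made in mildly cooled cells, had 328 and 374 CPM in ILC2 at ZT10 and 177 at ZT16. In ILC3 it had 326 and 372 CPM at ZT10 and 147 and 161 at ZT16. The levels of the 2 cell types were alike at ZT10, and every ZT16 library was far below every ZT10 library. Rbm3 fell by 1.10 on the log2 scale (SE 0.14; edgeR adjusted p = 0.0327). It overlaps the antisense gene Rbm3os, and the strand setting of the counting was not given, so reads of the 2 genes may be mixed. Cirbp, the other cold-inducible RNA-binding protein gene, had 124 and 162 CPM in ILC2 at ZT10 and 102 at ZT16, and 128 and 117 in ILC3 against 88.7 and 83.9; these groups did not overlap either, and its log2 fold change of -0.50 ± 0.14 was not called (edgeR adjusted p = 0.411).

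**Figure D1:**
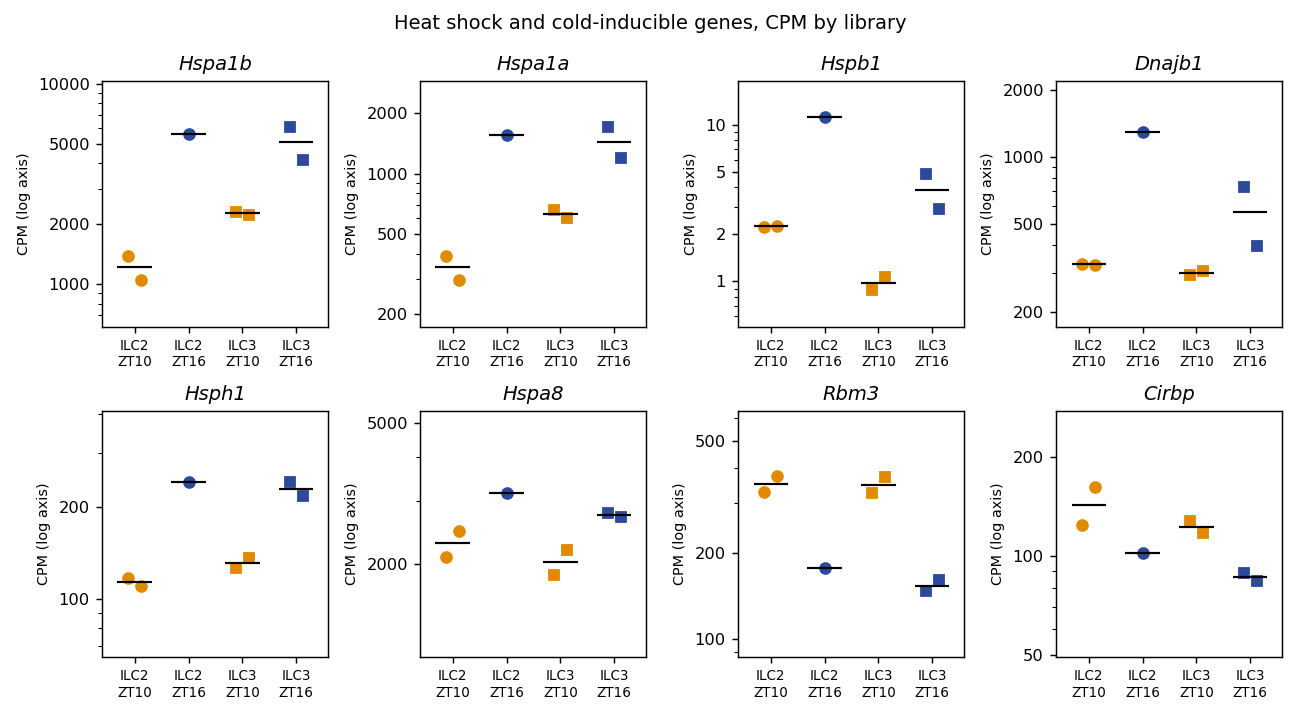
CPM on log axes of 6 heat shock genes and 2 cold-inducible genes in the 7 libraries; circles are ILC2, squares ILC3, orange ZT10, blue ZT16, and black bars group means (1 library for ILC2 at ZT16). The blue points lie above the orange ones within each cell type for the 6 heat shock genes and below them for Rbm3 and Cirbp.

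At the times outside the step, heat shock genes varied strongly between the libraries of some groups. Hspa1b had 388 and 1992 CPM in the ILC2 libraries of ZT4 and 4461 and 1375 in those of ZT23, and 473 and 4859 CPM in ILC3 at ZT4 and 3283 and 3136 at ZT23. The larger of 2 replicates was up to 10.3 times the smaller at these times, and up to 1.46 times at ZT10 and ZT16, beside the fitted 3.05-fold step. Replicates of Rbm3 differed by up to 2.37 times at ZT4 and ZT23 and by up to 1.14 times at ZT10 and ZT16, beside a fitted 2.15-fold step. In all 7 groups of 2 libraries, the library with more Hspa1b had less Rbm3. This order was noticed after the values were seen and is a description. It did not extend to Cirbp, which was lower with more Hspa1b in 4 of the 7 groups and higher in 3. Among heat shock genes, the library with more Hspa1b had more Hspa1a in 7 groups, more Hsph1 and Dnajb1 in 5 and more Hspb1 in 4. For comparison, that library also had more Dbp in 6 of the 7 groups and more Nr1d1 in 5. High Hspa1b with low Rbm3 was therefore seen at ZT16 and also in libraries of ZT4 and ZT23, among them both ILC3 libraries of ZT23.

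**Figure D2:**
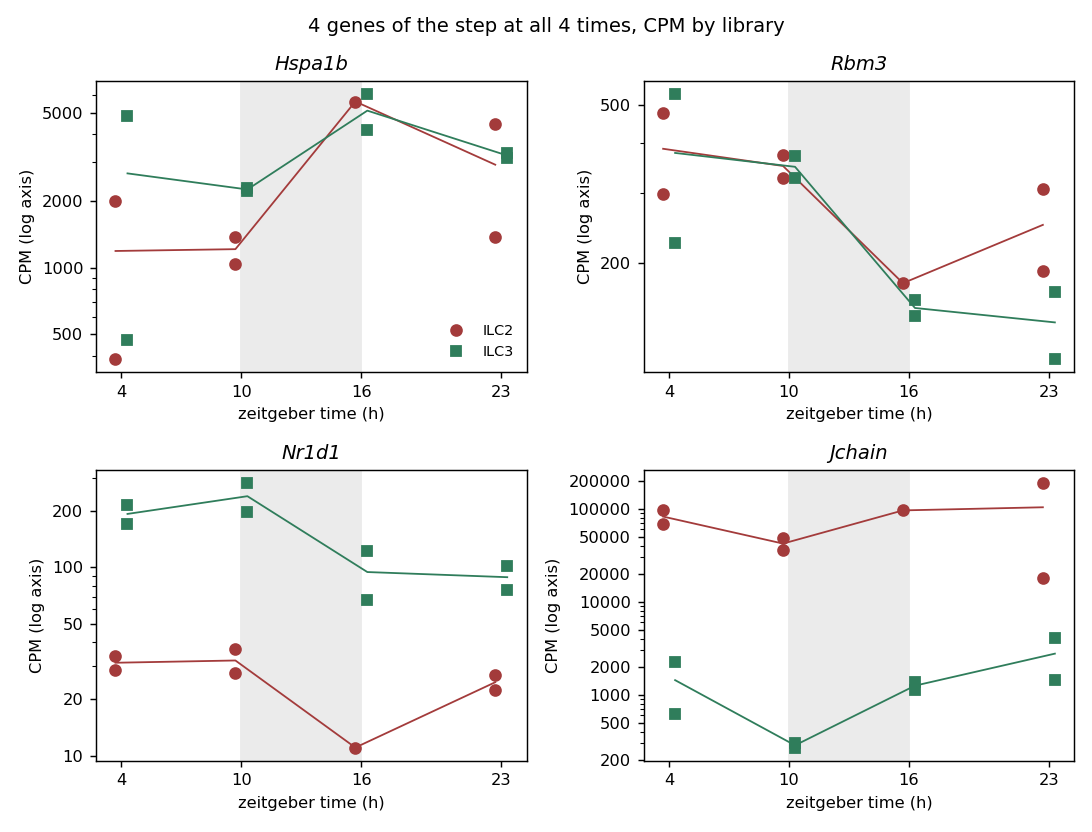
CPM on log axes of Hspa1b, Rbm3, Nr1d1 and Jchain at zeitgeber times of 4, 10, 16 and 23 h; circles are ILC2 libraries, squares ILC3 libraries, lines join group means, and the grey band spans the step. The ILC3 replicates of Hspa1b at ZT4 lie at 473 and 4859, wider apart than the step, while those of Nr1d1 at ZT16 lie at 122 and 66.8.

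Jchain, a gene of the antibody-making lineage, and the surface antigen gene Ly6d also rose across the step. Ly6d is not on the list of 15 plasma and B cell markers. Jchain (Entrez 16069; chromosome 5, 88519809 to 88527897), which encodes the chain that joins secreted antibodies, had 47870 and 36207 CPM in ILC2 at ZT10 and 95551 at ZT16. In ILC3 it had 301 and 270 CPM at ZT10 and 1365 and 1135 at ZT16. The ILC2 libraries held far more of it than the ILC3 libraries, and within each cell type every ZT16 library was above ZT10. The log2 fold change was 1.77 ± 0.22 (edgeR adjusted p = 0.0327), and Jchain was still called without the ILC2 ZT16 library (2.13, edgeR adjusted p = 0.0194). Mzb1, an endoplasmic reticulum chaperone of antibody-secreting cells, had 708 and 396 CPM against 1045 in ILC2, and 7.0 and 5.43 against 22.5 and 20.5 in ILC3 (1.43 ± 0.24, edgeR adjusted p = 0.0887). The antigen receptor chain gene Cd79a had 238 and 172 CPM against 492 in ILC2, and 3.02 and 1.07 against 9.18 and 7.18 in ILC3 (1.64 ± 0.28, edgeR adjusted p = 0.0887). Ly6d (Entrez 17068; chromosome 15, 74762056 to 74763567), a surface antigen known from B lymphoid cells, rose from 243 and 253 CPM to 450.4 in ILC2 and from 1.79 and 2.26 to 7.28 and 6.84 in ILC3 (1.35 ± 0.20, edgeR adjusted p = 0.0423).

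Of the 15 plasma and B cell markers tested, 1 was called higher and 0 lower; at an unadjusted p under 0.05, 7 were higher, against 2.89% of all genes, and 0 lower. Without overlap in both cell types, 7 were higher, against 6.88% of all genes, and 0 lower. The median log2 fold change was 1.05, the highest of the 30 lists. The B cell marker gene Ms4a1 was near 0, with at most 4.72 CPM in any of the 7 libraries. In the 7 groups of 2 libraries over the whole series, the library with more Hspa1b had more Jchain in 6, more Mzb1 in 6 and more Ly6d in 4, beside the 6 for Dbp. Across the step Jchain, Mzb1 and Cd79a, which had the smallest p of the plasma and B cell markers, were higher at ZT16 without overlap. So were the heat shock genes Hspa1a, Hspa1b and Hsph1. The plasma cell genes Sdc1 and Irf4 kept no steady direction, at -0.58 to 0.38 and -0.37 to 0.14 over the 17 alternatives. The part of plasma cell RNA in the heat shock result was not tested.

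Among the markers of other cells, the mast cell and basophil list summed to 83.0 and 18.2 CPM in ILC2 at ZT10 and 443 at ZT16, and to 1296 and 1323 against 2263 and 1199 in ILC3, so the ILC3 libraries overlapped. Eosinophil and neutrophil markers summed to 103 and 84.7 against 220 CPM in ILC2, mostly from the granule protein gene Prg2 (93.9, 82.6 and 212), and overlapped in ILC3. Epithelial markers summed to 686 and 754 against 984 CPM in ILC2 and to 1391 and 1560 against 1280 and 1344 in ILC3. Macrophage, monocyte and dendritic cell markers summed to 1640 and 1864 CPM in ILC3 at ZT10 and 2512 and 2542 at ZT16, without overlap, and to 3047 and 1550 against 2670 in ILC2, where the times overlapped; the list's median was 0.58 in ILC3 and -0.43 in ILC2. For these 4 lists 0 genes were called in either direction, and their part in the results was not tested. At an unadjusted p under 0.05 there were 2 of 11 mast cell and basophil genes higher and 1 lower, 2 of 8 eosinophil and neutrophil genes higher, 5 of 27 epithelial genes higher and 1 lower, and 4 of 19 macrophage, monocyte and dendritic cell genes higher. The shares over all genes tested were 2.89% higher and 3.53% lower.

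Several clock genes that BMAL1 and CLOCK activate were lower at ZT16 without passing the threshold. Nr1d1, which overlaps the gene Thra, had 36.8 and 27.4 CPM in ILC2 at ZT10 and 11.1 at ZT16, and 281 and 197 in ILC3 at ZT10 against 122 and 66.8 at ZT16. The ILC3 level exceeded the ILC2 level at both times, and the times did not overlap in either cell type. Its log2 fold change was -1.40 ± 0.23 and missed the threshold (edgeR adjusted p = 0.0763). Under the 17 alternatives Nr1d1 was called in 4 and Dbp in 5, DESeq2 and the fit without ILC2 ZT10 replicate 1 among them for both. Nr1d2, the other REV-ERB gene, had 237 and 216 CPM in ILC2 at ZT10 and 91.6 at ZT16, and 232 and 156 against 132 and 82.7 in ILC3 (-1.03 ± 0.20, edgeR adjusted p = 0.152). Rora, an activating receptor gene that competes with the REV-ERBs and that ILC2 need to develop, had 344 and 342 CPM against 175 in ILC2, and 249.6 and 142 against 147 and 70.6 in ILC3, where the times overlapped (-0.90 ± 0.25, edgeR adjusted p = 0.432).

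Of the 4 PAR bZIP and Nfil3 genes, which activate or repress D-box promoters, all 4 lay lower at ZT16 without overlap in both cell types, against 6.13% of all genes, and 0 were called. Dbp, which overlaps the gene Sphk2, had 55.2 and 51.4 CPM in ILC2 at ZT10 and 20.2 at ZT16, and 81.5 and 72.4 against 40.5 and 19.5 in ILC3 (-1.37 ± 0.22, edgeR adjusted p = 0.0763). Tef had 103 and 109.9 CPM against 61.8 in ILC2, and 76.6 and 77.2 against 61.6 and 45.5 in ILC3 (-0.63 ± 0.15, edgeR adjusted p = 0.318). Hlf was at -0.47 ± 0.25, with ILC3 libraries that barely separated (49.1 CPM at ZT10 and 48.0 at ZT16 for the nearest pair). Nfil3, the repressor that ILC development needs, was at -0.22 ± 0.13, and its ILC3 libraries separated by even less. Of the 4 genes, 2 were lower at an unadjusted p under 0.05, against 3.53% of all genes. At ZT23 the Dbp level was lower still, at 11.5 and 8.07 CPM in ILC2 and 15.7 and 8.86 in ILC3, and at ZT4 it was 30.4 and 27.9 in ILC2 and 22.3 and 23.9 in ILC3. Replicates of Dbp differed by up to 2.07 times and those of Nr1d1 by up to 1.83 times over the whole series, beside fitted steps of 2.59-fold and 2.64-fold.

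The Per and Cry genes did not act as 1 group. Cry2 had 27.6 and 25.0 CPM in ILC2 at ZT10 and 14.6 at ZT16, and 31.6 and 31.2 against 17.9 and 11.2 in ILC3, with no overlap (-1.01 ± 0.20, edgeR adjusted p = 0.155). Per1 had 729 and 716 CPM against 465 in ILC2, and 933 and 705 against 619 and 460.0 in ILC3, also without overlap (-0.61 ± 0.16, edgeR adjusted p = 0.369). Per3 was at -0.54 ± 0.25, Per2 at -0.07 ± 0.22 and Cry1 at 0.16 ± 0.15, each with overlapping libraries. This list of 12 genes also holds the kinases and ubiquitin ligases that set the stability of PER and CRY. Of the 12, 0 were called and 4 were lower at an unadjusted p under 0.05, against 3.53% of all genes. Among the 4 were Cry2, Per1 and Fbxw11 (-0.32 ± 0.13). The activator genes were near level: Arntl had 32.8 and 38.0 CPM against 34.6 in ILC2 and 51.4 and 38.8 against 41.1 and 28.9 in ILC3 (-0.24 ± 0.18), and Clock was at -0.18 ± 0.20. The repressor gene Bhlhe40 was at -0.26 ± 0.15 without overlap, and Bhlhe41 at 1.26 ± 0.56. Bhlhe41 had 29.8 and 9.06 CPM in ILC2 at ZT10 and 32.7 at ZT16, and was near 0 in ILC3, at 0.358 and 0.198 against 0.325 and 1.72, where the times overlapped.

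**Figure D3:**
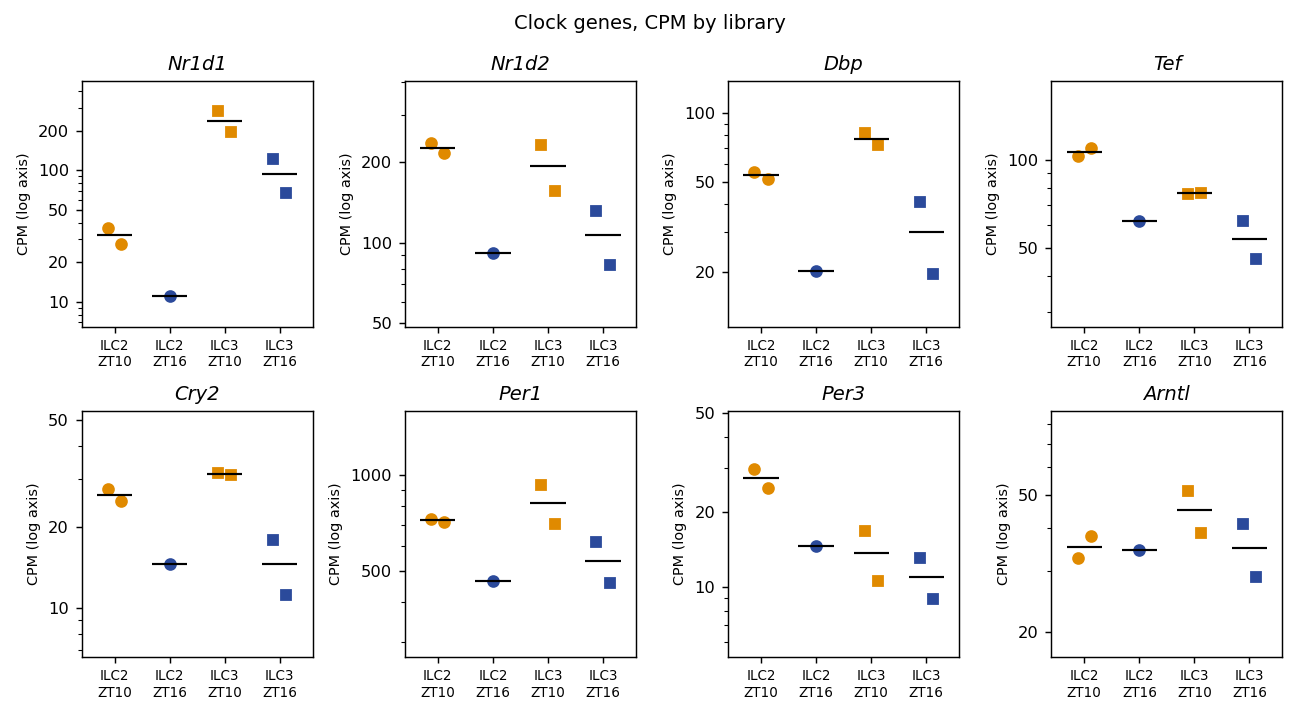
CPM on log axes of 8 clock genes in the 7 libraries; circles are ILC2, squares ILC3, orange ZT10, blue ZT16, and black bars group means (1 library for ILC2 at ZT16). For Nr1d1, Nr1d2, Dbp, Tef, Cry2 and Per1 every blue point lies below the orange points of its cell type, while the points of Per3 in ILC3 and of Arntl overlap.

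Promoter sequence is shown for 3 clock genes whose RefSeq window holds a clock motif, chosen after their values were seen. Each had a negative log2 fold change, none was called, and the libraries of Per3 overlapped between times in ILC3. RefSeq windows of 300 bases (250 before to 50 after the start, GRCm38.p6) matched 19 of the 25 clock genes tested. They were searched on both strands for the E-box CACGTG, held by 7.15% of all 32851 windows, and for the D-box TTATGTAA, held by 0.938%. A window of 5 clock genes held the E-box (Bhlhe41, Per1, Cry1, Ciart and Tef), and that of 1 held the D-box (Per3). Of these, Bhlhe41, Cry1 and Ciart were not lower at ZT16, with log2 fold changes of 1.26, 0.16 and 0.63. The other D-box TTACGTAA (0.119% of all windows) and TGGGTCA (3.98%) were in no window of a clock gene, TAGGTCA (2.61%), like TGGGTCA a core of the ROR and REV-ERB element, was in those of Arntl and Nfil3, and the cAMP response element TGACGTCA (1.79%) in that of Hlf. The 250 bases before the start follow, with matches in capitals: Per3 (chr4:151044666-151044915, minus strand) with 2 D-boxes, and Per1 (chr11:69098699-69098948, plus strand) and Tef (chr15:81802423-81802672, plus strand, 1 of its starts) with 1 E-box each.
Per3: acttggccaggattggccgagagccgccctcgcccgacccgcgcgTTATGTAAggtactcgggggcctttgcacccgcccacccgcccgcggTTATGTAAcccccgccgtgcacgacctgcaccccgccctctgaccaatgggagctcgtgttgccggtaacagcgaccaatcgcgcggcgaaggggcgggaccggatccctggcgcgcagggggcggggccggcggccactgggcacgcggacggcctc
Per1: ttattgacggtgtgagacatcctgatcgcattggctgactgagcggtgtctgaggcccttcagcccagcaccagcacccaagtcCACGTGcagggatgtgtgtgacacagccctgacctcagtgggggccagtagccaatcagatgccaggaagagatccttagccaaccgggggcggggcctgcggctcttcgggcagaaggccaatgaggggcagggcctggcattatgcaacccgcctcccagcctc
Tef: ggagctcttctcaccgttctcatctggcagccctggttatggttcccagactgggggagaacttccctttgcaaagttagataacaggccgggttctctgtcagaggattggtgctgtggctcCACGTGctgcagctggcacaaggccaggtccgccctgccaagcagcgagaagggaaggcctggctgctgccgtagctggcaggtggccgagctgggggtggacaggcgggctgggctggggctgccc
The windows of Nr1d1, Dbp, Nr1d2 and Cry2 hold none of these motifs, which says only that these letters are not in these windows.

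Wsb1 and Hsph1, both called, were looked up after their values were seen. Wsb1 (Entrez 78889; chromosome 11, 79239382 to 79254709, overlapping the predicted gene Gm30470) had 156 and 138 CPM in ILC2 at ZT10 and 74.9 at ZT16, and 229.9 and 185 in ILC3 against 114 and 103. The libraries did not overlap, and Wsb1 fell by 0.95 on the log2 scale (SE 0.14; edgeR adjusted p = 0.0423). Its promoter (chr11:79254696-79254945, minus strand) holds 2 E-boxes and 1 cAMP response element, also in capitals. The heat shock element was searched as GAANNTTCNNGAA on both strands, a search added after the data were seen: 0.603% of all windows hold it, and so do those of 4 of the 12 heat shock and cold-inducible genes with a window (Hsph1, Hspe1, Hspd1 and Chordc1). For Hsph1 the 30 bases around the match, which lies after the start, are shown (chr5:149636287-149636316, minus strand).
Wsb1: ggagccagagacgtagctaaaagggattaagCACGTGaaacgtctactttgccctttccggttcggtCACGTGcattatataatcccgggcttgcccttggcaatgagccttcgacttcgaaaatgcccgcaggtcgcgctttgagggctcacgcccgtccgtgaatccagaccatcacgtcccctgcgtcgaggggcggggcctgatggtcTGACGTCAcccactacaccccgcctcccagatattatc
Hsph1: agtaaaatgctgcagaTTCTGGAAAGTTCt

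Genes downstream of the clock mostly lay lower, 15 of 20 in sign, beside 7786 of all 15339 genes tested. Of the 20 clock output genes tested 0 were called, and the median was -0.21, beside -0.0022 for all genes tested. In this list 6 were lower at an unadjusted p under 0.05, against 3.53% of all genes, and 0 higher, against 2.89%. Without overlap 7 were lower, against 6.13% of all genes, and 1 higher, against 6.88%. Usp2, a ubiquitin protease gene, had 28.3 and 26.6 CPM in ILC2 at ZT10 and 17.7 at ZT16, and 42.7 and 19.8 against 18.6 and 13.2 in ILC3 (-0.84 ± 0.26). The cell cycle inhibitor gene Cdkn1a was at -0.58 ± 0.16, the coenzyme Q-binding protein gene Coq10b at -0.67 ± 0.17 and the phosphodiesterase gene Gpcpd1 at -0.56 ± 0.14, each without overlap. Outside this list, Crem, the cAMP-responsive modulator gene, had 329 and 335 CPM against 169 in ILC2, and 523 and 302 against 183 and 109 in ILC3 (-1.28 ± 0.23, edgeR adjusted p = 0.108).

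Cytokine genes of the ILC were not called. Il17f and Tnfsf11, which had the smallest p of their list, lay lower at ZT16, and Il10, next by p, lay higher. Il17f, a cytokine gene of ILC3, had 41.0 and 21.4 CPM in ILC3 at ZT10 and 9.79 and 6.39 at ZT16, and 4.22 and 3.90 against 2.00 in ILC2 (-1.65 ± 0.32, edgeR adjusted p = 0.138). Tnfsf11, which encodes RANKL, had 987 and 639 CPM in ILC3 against 441 and 239, and 223 and 261 against 128 in ILC2 (-1.12 ± 0.23, edgeR adjusted p = 0.156). Il22 was at 863 and 525 CPM in ILC3 at ZT10 and 420.3 and 313 at ZT16, and level in ILC2 at 18.6 and 21.3 against 21.9 (-0.53 ± 0.24, edgeR adjusted p = 0.770). Of 26 cytokine and effector genes, 12 had a positive and 14 a negative log2 fold change. Their median was -0.05 (0.11 without the ILC2 ZT16 library). In this list 5 were lower at an unadjusted p under 0.05, against 3.53% of all genes, and 1 higher, against 2.89%. The higher one was Il10, a regulatory cytokine gene (0.97 ± 0.32). The type 2 cytokine genes Il5 (0.44 ± 0.36) and Il13 (0.18 ± 0.37) were not called either, at an adjusted p of 0.923 and 0.977.

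Of 36 genes for cytokine and signal receptors, 9 were lower at an unadjusted p under 0.05, against 3.53% of all genes, and 0 higher, against 2.89%. Without overlap 4 were lower, against 6.13% of all genes, and 0 higher, against 6.88%. The list's median was -0.14 (-0.28 without ILC3 ZT16 replicate 1 and -0.08 without replicate 2). Ramp3, a partner of receptors for the calcitonin peptide family, had 174 and 184 CPM in ILC2 at ZT10 and 94.0 at ZT16, and 237 and 124 against 86.2 and 62.2 in ILC3 (-1.14 ± 0.22, edgeR adjusted p = 0.131). Pdcd1, the gene of the inhibitory receptor PD-1, was at -0.50 ± 0.14, Il23r at -0.70 ± 0.23 and Il7r, the receptor gene that ILC depend on for survival, at -0.56 ± 0.21. Among 24 lineage factor genes 4 were lower at an unadjusted p under 0.05, against 3.53% of all genes, and 0 higher, against 2.89%. The lower ones were led by Tcf7 (-0.56 ± 0.14), while Gata3 (0.05 ± 0.20) and Id2 (0.02 ± 0.14) differed by less than their standard errors.

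**Figure D4:**
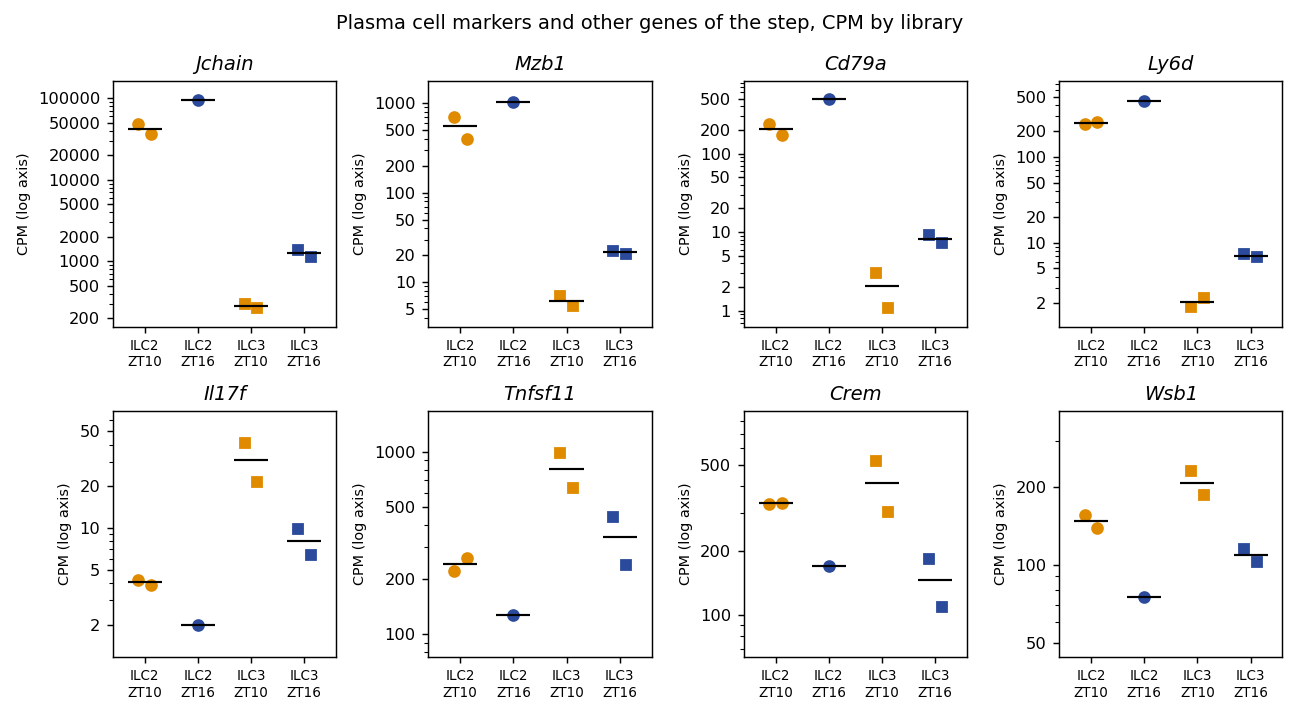
CPM on log axes of Jchain, Mzb1, Cd79a and Ly6d (upper row) and 4 genes lower at ZT16 (lower row) in the 7 libraries. Circles are ILC2, squares ILC3, orange ZT10, blue ZT16, and black bars group means (1 library for ILC2 at ZT16). Jchain lies at 36207 to 95551 in ILC2 and at 270 to 1365 in ILC3, and ZT16 exceeds ZT10 in both.

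Immediate-early genes, which respond within minutes to stimulation and also to tissue handling, split in their directions. Of 26 genes 6 were higher at an unadjusted p under 0.05, against 2.89% of all genes, and 5 lower, against 3.53%. Of the 26, 0 were called. Fos had 1871 and 1524 CPM in ILC2 at ZT10 and 3188 at ZT16, and 1867 and 1494 against 2643 and 2285 in ILC3 (0.70 ± 0.16, edgeR adjusted p = 0.282). Jun was at 0.70 ± 0.16 and Klf2, a factor that governs lymphocyte egress, at 0.87 ± 0.17. The orphan receptor genes lay the other way: Nr4a3 had 567 and 522 CPM against 257 in ILC2, and 887 and 696 against 528 and 309 in ILC3 (-0.98 ± 0.19, edgeR adjusted p = 0.146), and Nr4a2 was at -0.85 ± 0.19. Among 17 NF-kB genes 5 were lower at an unadjusted p under 0.05, against 3.53% of all genes, and 0 higher, against 2.89%. Their median was -0.26 (-0.15 without ILC3 ZT10 replicate 1), with Rel at -0.49 ± 0.15.

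Genes of sterol and fatty acid synthesis were mostly higher at ZT16. Of 28 genes 10 were higher at an unadjusted p under 0.05, against 2.89% of all genes, and 0 lower, against 3.53%. Without overlap 12 were higher, against 6.88% of all genes, and 1 lower, against 6.13%. Of the 28, 0 were called, and the median was 0.23, beside -0.0022 for all genes tested. Hmgcs1, an early enzyme of the sterol pathway, had 96.7 and 79.3 CPM in ILC2 at ZT10 and 143 at ZT16, and 103 and 85.3 against 123 and 147 in ILC3 (0.59 ± 0.14, edgeR adjusted p = 0.318). Sqle, the squalene epoxidase gene, was at 0.62 ± 0.16, the squalene synthase gene Fdft1 at 0.59 ± 0.16 and the desaturase gene Scd2 at 0.54 ± 0.13. Of the cytosolic ribosomal protein genes 1 of 48 was lower at an unadjusted p under 0.05, against 3.53% of all genes. In sign 47 of the 48 were negative, beside 7786 of all 15339 genes tested, with a median of -0.10. That median rests on single libraries: it was 0.0072 without ILC2 ZT10 replicate 2 and 0.04 without ILC3 ZT10 replicate 2, and -0.21 and -0.25 without replicate 1 of these groups, and the list's summed CPM overlapped between times in both cell types. Of 34 cell cycle genes 3 were higher at an unadjusted p under 0.05, against 2.89% of all genes. In either direction there were 0 of 44 oxidative phosphorylation genes.

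**Figure D5:**
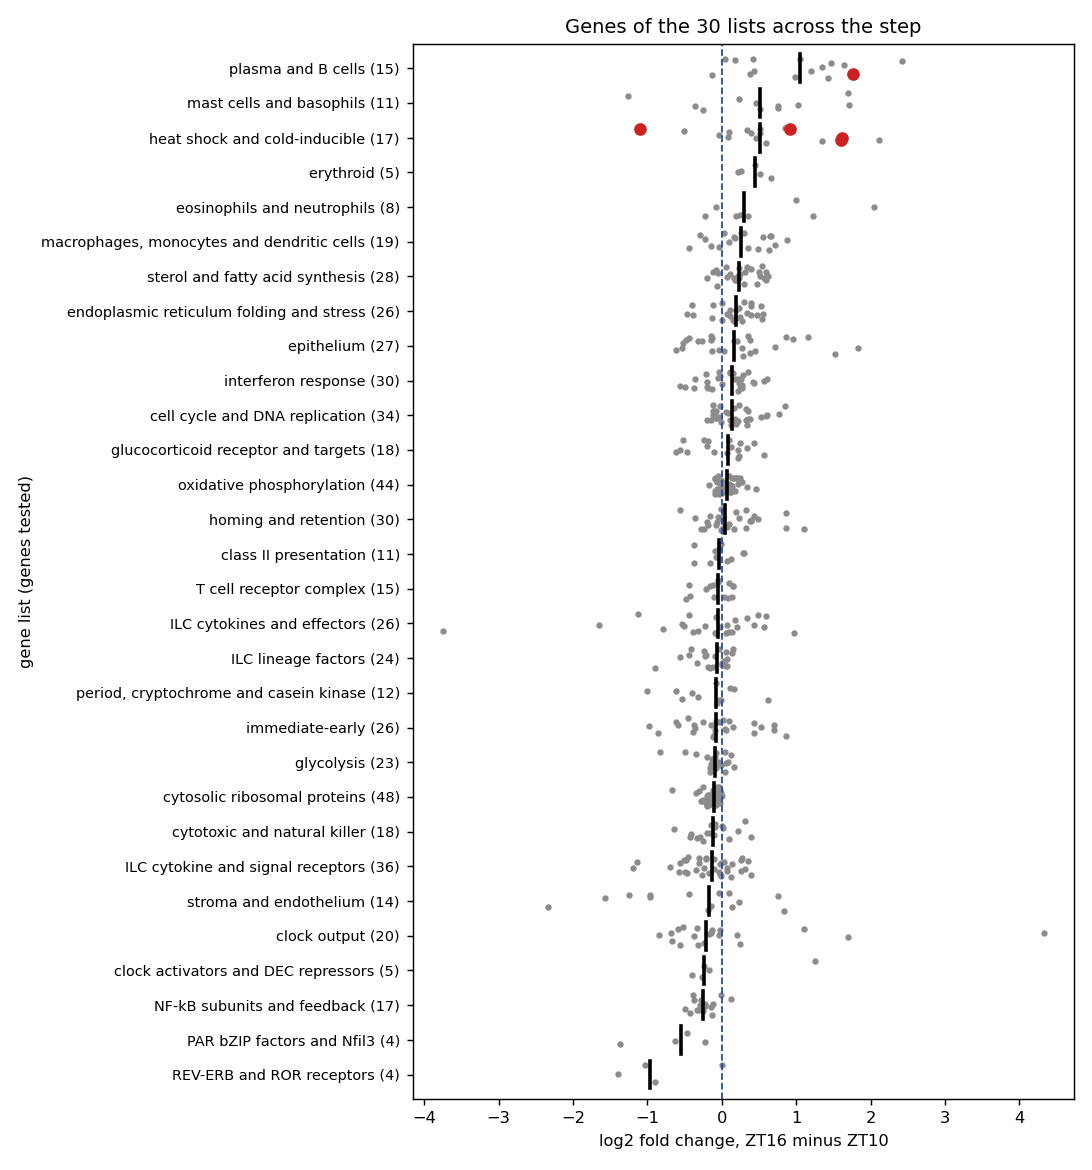
Log2 fold change, ZT16 minus ZT10, of the genes tested in 30 lists; each grey point is a gene, red points were called at an adjusted p of 0.05, black bars are list medians and the dashed line is the median of all 15339 genes. The medians run from -0.97 for the REV-ERB and ROR receptors to 1.05 for plasma and B cell genes.

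Taken in each cell type alone, in a fit of 8 group means over all 15 libraries, the step gave 0 called genes in ILC2 (308 at an unadjusted p under 0.05, 2.01%) and 0 in ILC3 (103, 0.671%); DESeq2 called 1 and 0. The difference of the steps between the cell types was called for 0 genes by edgeR (174 at an unadjusted p under 0.05, 1.13%) and for 1 by DESeq2. Values in ILC2 and ILC3 were near each other for Rbm3 (-0.98 and -1.18), Dbp (-1.40 and -1.36), Nr1d1 (-1.53 and -1.34) and Per1 (-0.63 and -0.60). They lay further apart for Hspa1b (2.21 and 1.18), Dnajb1 (1.98 and 0.91), Jchain (1.18 and 2.13) and Ly6d (0.86 and 1.80), with an edgeR adjusted p of the difference of 1 for each of these 4. Steps that were opposite without overlap, higher in ILC2 and lower in ILC3, were found for 561 genes (3.66%), and the reverse for 526 (3.43%). The ILC2 values rest on 1 library at ZT16, whose spread was taken from the other groups.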

How the data were processed

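PolyA RNA of sorted ILC2 and ILC3 was sequenced with a TruSeq RNA kit, per the labels' protocols. The authors deposited raw read counts per gene, 1 file per library, under Entrez identifiers; they were counted with featureCounts on mm10, per the submitters' processing notes, while aligner, strand setting and handling of multiply mapped reads are not given in the sources used here. Of 22797 genes, 22718 were named from the RefSeq table of GRCm38.p6 (the mm10 build), which also gave positions and promoters.

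Genes were kept with filterByExpr (minimum count 10, 8 groups), which left 15339, and scaled with TMM factors, both over all 15 libraries. For the step, edgeR's quasi-likelihood model (version 4.0.16, under R 4.3.3) held cell type plus time on the 7 libraries (4 residual degrees of freedom). The steps of each cell type and their difference came from 8 group means over all 15 libraries. Benjamini-Hochberg adjustment ran over all genes tested, with a threshold of 0.05; tests are two-sided. Chi-square per degree of freedom between replicates was 22.0 to 66.3 in the step's groups, above sampling noise.

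The members and the 30 gene lists (628 entries, 626 found) were chosen with earlier results of these data known. Named genes are all clock genes tested, the 12 with the smallest p in each direction (absolute log2 fold change of at least 1, at least 5 CPM, no overlap), up to 4 of each list by p and the 6 in each direction for the difference of the steps; other list members, Wsb1 and pairs of genes compared across libraries were chosen after their values were seen. Some genes of these rules and lists are not reported here by name, though the counts hold them. The alternatives were DESeq2 1.42.0, limma 3.58.1 (voom), other scalings and filters, other fits, a replicate block and leaving out each library. The fit was tested on simulated data.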

Additional observations from a re-analysis of the deposited data

Results flagged for a closer look

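In 7 genes the step went one way in every ILC2 library and the opposite way in every ILC3 library without overlap. This also held for 3.66% of all genes tested with ILC2 higher and ILC3 lower and for 3.43% the other way round, and edgeR's adjusted p of the difference was 1 for all 7. The difference of the log2 fold changes (ILC3 minus ILC2) was 2.51 for Mmp9, a matrix protease gene (-1.42 in ILC2 and 1.09 in ILC3), and 2.85 for Il1a, the interleukin-1 alpha gene (-2.13 and 0.73). It was -3.36 for Adm, the adrenomedullin gene (2.87 and -0.49), and -3.63 for Nap1l3 (2.60 and -1.03). The remaining differences were 7.54 for Adamts15, which had 0 counts in the ILC2 library of ZT16, and -7.76 for Mmp23 and -7.28 for Syp, which had 0 counts in both ILC2 libraries of ZT10; these fitted values depend on the prior count and are no bound. Each ILC2 value rests on 1 library at ZT16.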

How the results depend on the processing

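The reported fit called 8 genes for the step, 6 higher and 2 lower, with 3 higher and 1 lower on the heat shock and cold-inducible list and 1 higher on the plasma and B cell list. The number called moved with the setting. All 8 genes kept their direction throughout, which for genes without overlap between times could hardly come out otherwise. Scaling by library size alone left 1 lower. Without the filter on low counts 77 were called (35 higher, 42 lower), with 6 heat shock genes and 6 plasma and B cell genes higher and 1 gene in the ILC2 step. A filter of 30 counts left 2 (1 higher, 1 lower), with 0 heat shock genes higher. DESeq2 called 118 (45 higher, 73 lower), with 7 heat shock genes and 6 plasma and B cell genes higher, 1 gene in the ILC2 step and 1 in the difference of the steps. Both fits over all 15 libraries (8 group means, or cell type plus 4 times) called 0, in either direction and on either list. The 7 libraries fitted alone with 4 group means called 5 genes in the ILC2 step, 2 in the ILC3 step and 3 in their difference, against 0 in the 15-library fit. Leaving out each library in turn gave 0 to 27 genes, 0 to 23 higher and 0 to 4 lower, with 0 to 3 heat shock genes higher, 0 to 1 lower and 0 to 5 plasma and B cell genes higher. Whether the ILC3 replicate numbers pair the libraries is not known. Correlations of deviations between same-numbered ILC3 libraries ran from -0.127 to 0.424, with 0.215 between ZT10 and ZT16. They differed in sign between pairs of times and cannot decide it. With a replicate block for ILC3, 31 genes were called (10 higher, 21 lower), 3 of them plasma and B cell genes higher. The cause of these shifts was not tested, other than that fewer samples or genes entered some fits. Of 3908 values of 230 genes over these alternatives, 3803 kept the direction of the reported fit and 105, none of a called gene, did not. Counts were simulated for this comparison over 15339 genes, with the changed genes drawn from those with a mean of at least 5 CPM. Of 100 genes changed 2-fold 68% were called, and of 100 changed 4-fold 99%, with 9 false calls. Part of the 2-fold changes was thus missed in the simulation. The adjusted p depends on how many genes change, so these shares need not hold for the step itself, where 8 genes were called.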

Other observations

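Other genes with fitted differences of at least 2-fold and no overlap between times were led by Slpi, a secreted protease inhibitor gene, with 91.7 and 83.8 CPM in ILC2 at ZT10 and 219 at ZT16, and 1.11 and 0.396 against 3.34 and 2.56 in ILC3 (log2 fold change 1.59 ± 0.24, edgeR adjusted p = 0.059). Ly6k had 6.21 and 16.7 CPM against 36.2 in ILC2, and 0.278 and 0.277 against 2.04 and 1.28 in ILC3 (2.04 ± 0.39). The hematopoietic factor gene Lyl1 was at 1.13 ± 0.21, with 8.95 and 8.89 CPM against 18.6 in ILC2 and 6.01 and 7.17 against 16.2 and 13.7 in ILC3. Lower at ZT16 were the splicing factor gene Cwc25 (-1.13 ± 0.21), with 296 and 314 against 137 CPM in ILC2 and 348 and 212 against 160 and 98.0 in ILC3, the matrix protein gene Ltbp3 (-1.11 ± 0.27) and the peptide transporter gene Slc15a2 (-1.45 ± 0.35). None of these 6 passed the threshold.

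Of 23 glycolysis genes 17 had a negative log2 fold change and 0 were called; their median of -0.08 was -0.01 without ILC3 ZT10 replicate 2. Among them, the hexokinase gene Hk2 had 126 and 97.9 CPM against 76.6 in ILC2 and 765 and 398 against 378 and 197 in ILC3 (-0.83 ± 0.26), and the kinase gene Pdk1 was at -0.50 ± 0.14. Of 26 genes of endoplasmic reticulum folding 0 were called, and the list's median was 0.48 in ILC2 and -0.02 in ILC3, beside 0 for all genes in both; the difference was not tested over the list. Ifitm1, an interferon-induced membrane protein gene, had 0.746 and 0.439 CPM in ILC2 at ZT10 and 7.23 at ZT16, and 54.6 and 49.3 against 59.4 and 56.4 in ILC3.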
